A study of Mus musculus with 72 samples.

Results

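The 39 interferon-stimulated genes described here were taken by symbol from the 50600 genes counted in 6 mouse melanoma lines, and each of the 39 had a row. RNA was sequenced from 72 libraries, with 4 treatments of each line and 3 replicates of each treatment, to ask what GRP (gastrin-releasing peptide) does to cells with and without its receptor, Grpr. Lines 1057 and 1064 are female, carry the alleles Tyr::NRASQ61K/° and Cdkn2a-/- together with the melanocyte Cre allele Tyr::CreA/° and Cdh1dF/dF, and make Grpr themselves. The male line 1181 has Tyr::NRASQ61K/° and Cdkn2a-/-, and its label gives °/° where the Cre allele would stand, beside Cdh1dF/dF. For the female line 1014 the label gives Tyr::NRASQ61K/° alone. Both 1181 and 1014 were used as a control version with CMV::tGFP (1181-Ctrl, 1014-Ctrl) and as a version with CMV::Grpr/tGFP, in which the viral CMV promoter drives Grpr (1181-Grpr, 1014-Grpr). All cells were starved for 18 h in 0.5% FCS and then given mock (0.1% DMSO), 10 nM GRP, 1 µM of the Grpr antagonist RC-3095 (RC), or GRP+RC, for 4 h. Each genotype is held by 1 line, or by 2 lines for 1057 and 1064, so line and genotype cannot be told apart. The methods speak of biological triplicates for cell culture experiments in general, while the labels give only a replicate number, so p-values measure the spread between these libraries, whatever its source.

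Interferons are secreted proteins that bind receptors on the cell surface, activate the kinases JAK1 and TYK2 and, through transcription factors that include STAT2 and IRF9, switch on a broad set of genes that limit viral growth. Type I interferon acts mainly through the interferon-stimulated response element (ISRE) of a promoter, and interferon gamma through the gamma-activated site (GAS). Many of these genes also keep a low tonic level in cells that no virus has infected, and in tumour cells they bear on antigen presentation and on recognition by immune cells.

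Values are CPM (read counts scaled to a common library size) with TMM factors over all 72 libraries, which compare 1 gene between libraries, or deposited TPM, which are also scaled by gene length and allow genes to be compared. A gene passed at a Benjamini-Hochberg adjusted p under 0.05 over all genes tested with edgeR's quasi-likelihood test, and "adjusted p" below is that value. Library totals ranged from 19512882 to 46862053 counts. Grpr had mock means of 274 CPM in 1057, 1001 CPM in 1064, 125 CPM in 1014-Grpr and 11.8 CPM in 1181-Grpr, against 0 in 1014-Ctrl and 0.0508 CPM in 1181-Ctrl. Cdh1, the gene of the dF alleles, had mock means of 0.0103 CPM in 1057, 0.0291 CPM in 1064, 2.7 CPM in 1014-Ctrl and 2.13 CPM in 1014-Grpr, and 19.3 CPM in 1181-Ctrl and 17.1 CPM in 1181-Grpr, although the label of 1181 gives Cdh1dF/dF. In 2 libraries the label checks went against the label. The library labelled 1014-Ctrl mock replicate 2 held 48.1 CPM of Grpr and 64.3 CPM of the Y-linked Ddx3y, both 0 in the other replicates, and 5586 CPM of Dct against 21637 and 21318 CPM. The library labelled 1181-Grpr GRP+RC replicate 2 held no Grpr or Ddx3y and had 21786 CPM of Dct against 5468 and 5645 CPM. Mock means of 1014-Ctrl below leave the first of them out (n = 2) unless stated otherwise, and counts of genes that passed are given with both libraries, and without them where that changes the count.

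The 1181-Grpr libraries also differed from 1181-Ctrl in ways the labels do not give. Xist, which is read from an inactive X chromosome, lay between 192 and 251 CPM in the other 11 libraries of 1181-Grpr and between 0.0282 and 0.639 CPM in 1181-Ctrl. Ddx3y was present in both, at 36.9 to 63.0 CPM and 55.7 to 87.3 CPM. These values are set beside each result on 1181-Grpr. All 6 lines expressed the melanocyte lineage genes Sox10 (mock means of 777 to 1155 CPM) and Mitf (377 to 1027 CPM), and Tyrp1 was lowest in 1181-Ctrl (1.95 CPM). Of 8 leukocyte markers, Ptprc, Adgre1, Csf1r, Itgam and Cd3e were under 1 CPM in every library, and Lyz2, which encodes lysozyme, had the most, with mock means of 25.6 CPM in 1057, 24.0 CPM in 1181-Ctrl, 21.6 CPM in 1181-Grpr, 11.7 CPM in 1064, 1.66 CPM in 1014-Grpr and 0.86 CPM in 1014-Ctrl. Cd68, the 1 leukocyte marker that passed with GRP in 1057 and 1014-Grpr, stayed at or under 6.41 and 8.61 CPM there. The endothelial marker Cdh5 had mock means of 4.65 CPM in 1057 and 4.26 CPM in 1064 and at most 0.171 CPM in the other lines without the doubtful libraries, while Pecam1 and Kdr were under 1 CPM throughout. With GRP in 1057, 1 of 1 tested endothelial markers and 1 of 1 tested fibroblast markers were higher, by 0.50 and 0.53 on the log2 scale. The summed level of 5 fibroblast markers per library was 9.3 to 35.2 CPM in 1064, 3.88 to 7.29 CPM in 1057, 3.51 to 5.13 CPM in 1014-Ctrl, 3.12 to 5.31 CPM in 1014-Grpr, 0.621 to 2.85 CPM in 1181-Ctrl and 3.64 to 5.88 CPM in 1181-Grpr, and the part of these markers in the differences was not tested. In bulk RNA, fewer cells with a transcript and less of it per cell cannot be told apart.

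RefSeq promoters (assembly GRCm38.p6), taken from 250 bases before to 50 bases after the start, were found for 30 of the 39 genes. The ISRE core, searched on both strands as GAAA, any 2 bases and GAAA again, was held by 14 of the 30 and by 3.99% of all 27025 genes with a promoter entry. The GAS core TTCNNNGAA, searched likewise, was held by 7 of the 30 and by 9.55% of all. Both motifs were found in 3 of the 30, neither in 12, and in Bst2 they overlapped. A match is a string of letters and not a site shown to be bound. The promoters of 4 genes that the results turn on are printed in lower case, with ISRE or GAS matches in capitals. Isg15 encodes a ubiquitin-like protein that is attached to other proteins, and its 3 overlapping ISRE matches began 78, 72 and 66 bases before the start (chr4:156200769-156201068, minus strand). Trim25, a ubiquitin ligase that activates the RNA sensor RIG-I, had neither motif (chr11:88999153-88999452, plus strand). Irf1, a transcription factor and a classical target of interferon gamma, had a GAS match 90 bases before the start (chr11:53769764-53770063, plus strand), and its second RefSeq start had neither motif. Eif2ak2 encodes PKR, a kinase that stops translation when it binds double-stranded RNA, and it had a GAS match 178 bases before and an ISRE match 18 bases after the start (chr17:78882523-78882822, minus strand).
Isg15: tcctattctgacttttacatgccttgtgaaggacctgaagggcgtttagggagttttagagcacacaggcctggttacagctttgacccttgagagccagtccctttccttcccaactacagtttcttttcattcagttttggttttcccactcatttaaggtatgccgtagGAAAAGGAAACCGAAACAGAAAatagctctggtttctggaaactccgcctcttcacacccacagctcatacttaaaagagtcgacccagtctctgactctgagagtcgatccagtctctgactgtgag
Trim25: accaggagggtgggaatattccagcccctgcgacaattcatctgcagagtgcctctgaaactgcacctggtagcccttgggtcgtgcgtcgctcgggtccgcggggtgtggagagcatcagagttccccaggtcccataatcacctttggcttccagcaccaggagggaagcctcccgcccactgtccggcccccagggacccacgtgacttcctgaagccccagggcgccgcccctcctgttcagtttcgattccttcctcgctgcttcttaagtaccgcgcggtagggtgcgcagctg
Irf1: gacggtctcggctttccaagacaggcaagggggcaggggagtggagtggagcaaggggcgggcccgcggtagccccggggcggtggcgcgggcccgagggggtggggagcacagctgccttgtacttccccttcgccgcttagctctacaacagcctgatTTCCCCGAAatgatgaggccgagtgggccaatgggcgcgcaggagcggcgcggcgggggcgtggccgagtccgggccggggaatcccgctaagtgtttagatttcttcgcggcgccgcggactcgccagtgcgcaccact
Eif2ak2: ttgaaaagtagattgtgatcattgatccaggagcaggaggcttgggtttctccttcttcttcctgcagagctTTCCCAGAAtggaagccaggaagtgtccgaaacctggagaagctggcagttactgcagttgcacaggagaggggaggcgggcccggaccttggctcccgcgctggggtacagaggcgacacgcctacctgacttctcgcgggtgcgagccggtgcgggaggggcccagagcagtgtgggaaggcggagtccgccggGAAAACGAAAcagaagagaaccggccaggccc

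Without added ligand, these genes were low in 1057, 1064 and 1181-Ctrl and higher in both versions of 1014 and in 1181-Grpr. In mock-treated cells, 37 of the 39 genes reached 1 TPM in 1014-Ctrl and 37 in 1014-Grpr, 36 in 1181-Grpr, 23 in 1064, 20 in 1181-Ctrl and 19 in 1057. The median over the 39 was 16.9 TPM in 1014-Ctrl, 17.6 TPM in 1014-Grpr, 15.5 TPM in 1181-Grpr, 2.18 TPM in 1064, 1.08 TPM in 1181-Ctrl and 0.717 TPM in 1057. B2m, the light chain of MHC class I, led in every line, from 957 ± 22.6 TPM (SD, n = 3) in 1057 to 3407 ± 164 TPM (SD, n = 3) in 1014-Grpr. Bst2, also called tetherin, which holds budding virus at the cell surface, was among the 3 highest in every line, from 36.1 ± 20 TPM in 1181-Ctrl to 348 ± 32.7 TPM in 1014-Grpr (SD, n = 3 each). Ifit3 was the other of the 3 in both versions of 1014 and in 1181-Grpr (86.4 to 92.2 TPM). Trim25 (64.3 ± 1.60 TPM) held a top-3 place in 1057, the GTPase gene Gbp2 (88.7 ± 96.9 TPM) in 1064 and Ifi35 (44.4 ± 10.6 TPM) in 1181-Ctrl (SD, n = 3 each). At the other end, the synthetase gene Oas3 and the nucleic acid sensor gene Zbp1 were under 1 TPM in all 6 lines.

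**Figure D1:**
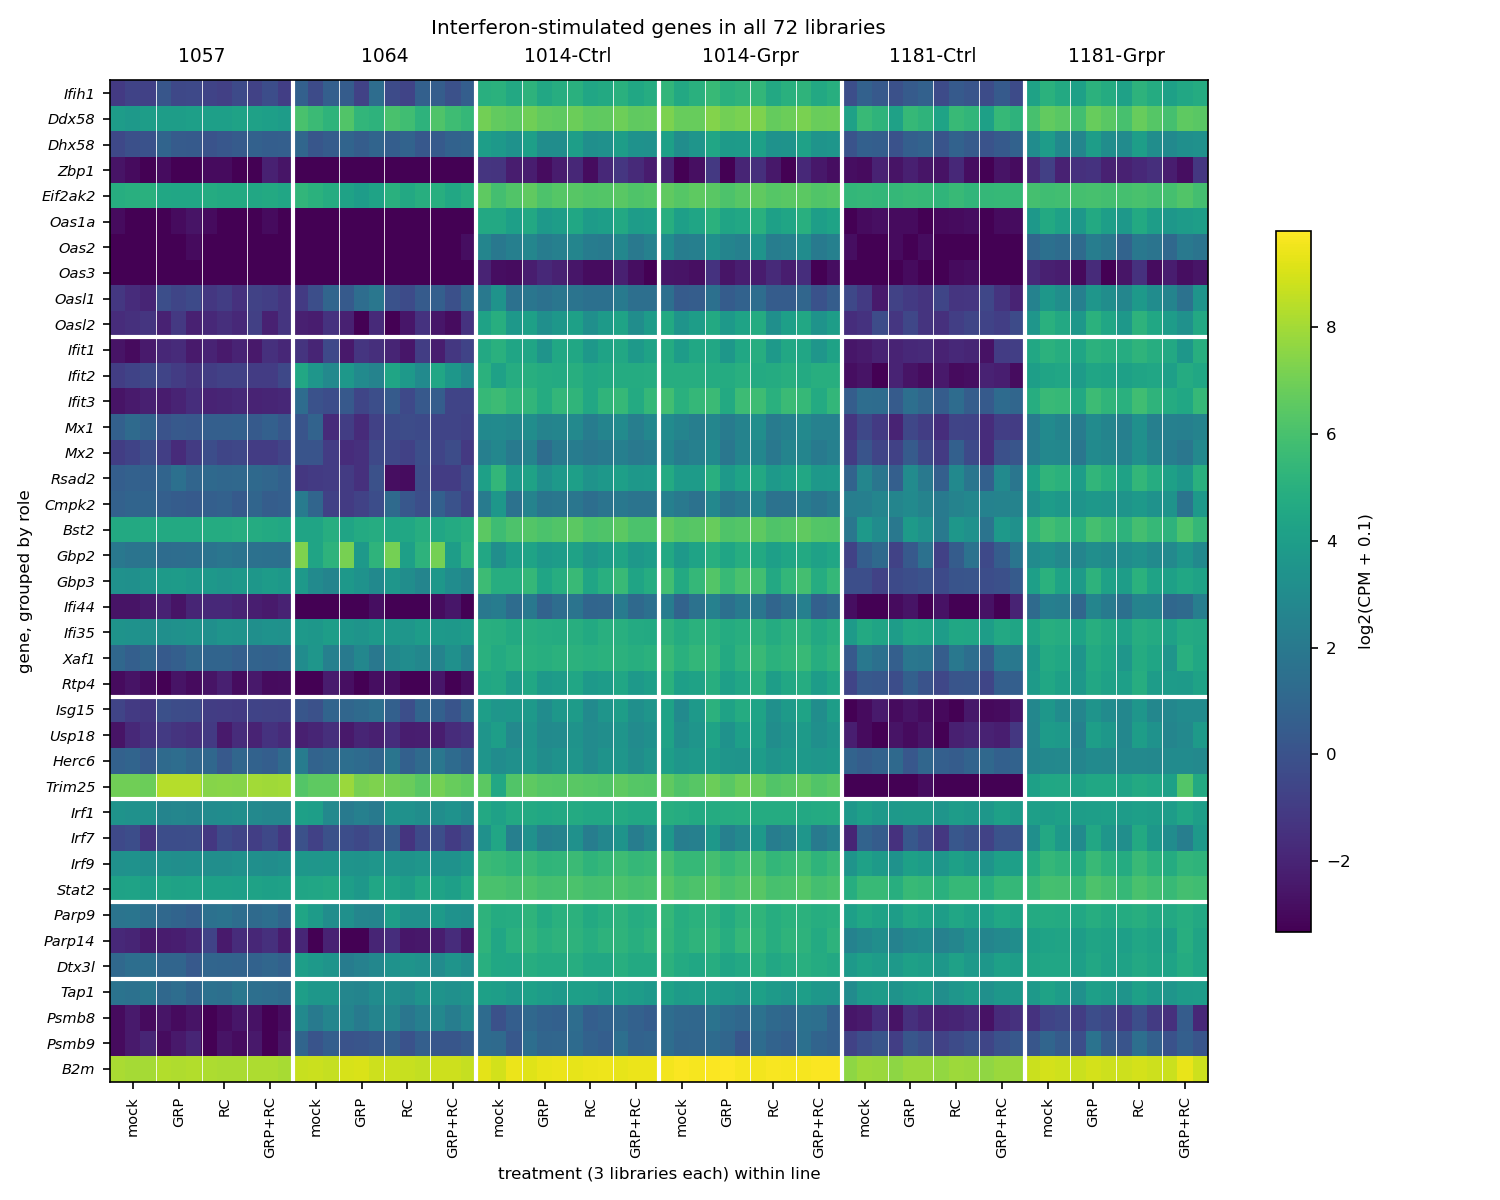
Levels of the 39 genes in the 72 libraries, as log2(CPM + 0.1) in colour, with genes in rows grouped by role and libraries in columns by line and treatment. Both versions of 1014 and 1181-Grpr are light in most rows, while 1057, 1064 and 1181-Ctrl are dark in most rows, and treatments of a line show little contrast at this scale, with Trim25 in 1057 as an exception.

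The mock level was highest in 1014-Grpr for 22 genes, in 1181-Grpr for 10, in 1014-Ctrl for 4, in 1064 for 2 (Gbp2 and the immunoproteasome gene Psmb8) and in 1057 for 1 (Trim25). It was lowest in 1057 for 21 genes, in 1181-Ctrl for 10 and in 1064 for 8. The ratio of the highest to the lowest line was 480 for Ifit3, 137 for Oasl2 and 60.1 for Gbp3. Ifit3 had 44.3 CPM in 1014-Grpr and 0.0921 CPM in 1057, with at most 4 reads per library in 1057. Ifit2 (925) and Rtp4 (670) had larger ratios, with at most 2 and 3 reads per library in their lowest line. Ifit1 (471), Parp14 (359) and Isg15 (354) were among those between Ifit3 and Oasl2. For Trim25 the ratio was at least 963, with 123 CPM in 1057 and no read in 1181-Ctrl against a floor of 3 counts per library. The spread between lines was smallest for Irf1 (2.72-fold), Eif2ak2 (2.98-fold), Ifi35 (3.17-fold), B2m (3.66-fold) and Stat2 (3.86-fold) among genes above the floor in all lines. Transcripts of the upstream genes Ifnar1, Ifnar2 and Jak1 were present in each line. Mock means of Ifnar1, a chain of the type I interferon receptor, were 83.9 to 144 CPM, and those of Ifnar2, the other chain, were 13.9 to 51.4 CPM. Jak1 had 156 to 207 CPM. Of 18 kinase, STAT, adaptor and IRF genes, 2 were under 1 CPM in every library of 1057 and 2 in every library of 1064. The count was 1 in 1181-Ctrl and 0 in the other lines. The 10 interferon genes on the list of upstream genes stayed at or under 0.154 CPM in every library. The summed level of the 8 leukocyte markers was 34.2 to 56.7 CPM per library in 1181-Ctrl, 24.7 to 30.1 CPM in 1057 and 8.34 to 28.5 CPM in 1064. It was 24.7 to 28.9 CPM in 1181-Grpr, 3.2 to 5.25 CPM in 1014-Ctrl and 3.49 to 10.3 CPM in 1014-Grpr. In each line 6 of the 8 were under 1 CPM in every library, with the doubtful libraries left out. The part of leukocyte RNA in the differences between lines was not tested.

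The 1181-Grpr cells had higher levels than 1181-Ctrl for 28 of the 37 genes tested and lower levels for none. The background was 8.35% of all genes higher and 1.39% lower. The median log2 fold change was 2.96 for the 37 genes (also with Trim25 at its bound) and 0.02 for all genes tested. Isg15 had 0, 0.0305 and 0.0914 CPM in 1181-Ctrl and 6.77, 12.1 and 8.18 CPM in 1181-Grpr. Ifit1 had 0.0766, 0.0914 and 0.137 CPM against 23.7, 34.1 and 28.8 CPM. The lowest 1181-Grpr library was far above the highest 1181-Ctrl library for both. Since 1181-Ctrl held only 3 reads of Isg15 and 8 of Ifit1 in all, their ratios carry counting intervals (95%, exact, counting error only), 225 (76.7 to 1094) for Isg15 and 274 (139 to 636) for Ifit1. Other genes at this limit were Ifit2 with a ratio of 497 (170 to 2414), Oas1a, which makes the second messenger that activates RNase L, with 700 (194 to 5789), and Usp18, which removes ISG15 from proteins, with 217 (84.4 to 797). Oas1a shares 40.9% of its 100-base exon windows with Oas1g, so its reads may be split between the copies. Trim25 had no read in 1181-Ctrl and 17.8, 22.6 and 23.3 CPM in 1181-Grpr, at least 167-fold higher. For these genes the adjusted p ranged up to 2.9e-06.

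Genes with reads in both versions showed the same direction. Gbp3, an interferon-induced GTPase, had 0.805, 0.792 and 0.502 CPM in 1181-Ctrl and 16.8, 33.5 and 19.7 CPM in 1181-Grpr (log2 fold change 5.04, SE 0.45, adjusted p = 2.9e-06). Ifih1, which encodes the RNA sensor MDA5, had 0.805, 1.62 and 1.19 CPM and then 18.8, 32.9 and 25.5 CPM (4.41, SE 0.34, adjusted p = 7.8e-07). Irf7, the transcription factor that amplifies type I interferon, had 0.153, 1.74 and 1.32 CPM and then 9.11, 24.1 and 13.8 CPM (3.86, SE 0.73, adjusted p = 0.00251). For none of the 3 did the versions overlap. By role, 7 of 8 tested sensors, 12 of 14 effectors, 4 of 4 genes of the ISG15 system, 2 of 4 transcription factors, 1 of 3 genes of the PARP9 group and 2 of 4 genes of antigen presentation were higher. B2m differed less, with 193, 236 and 230 CPM against 439, 503 and 459 CPM (2.13-fold, adjusted p = 1.7e-05). The 9 genes that did not pass were Cmpk2, Dtx3l, Eif2ak2, Ifi35, Irf1, Parp9, Psmb9, Stat2 and Tap1. Without the 2 doubtful libraries 29 passed, where 16.3% of all genes passed in either direction, against 9.73% with them. Without replicate 1, 2 or 3 the count was 26, 26 and 21.

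Beside this result stand the levels of genes that mark 1014 and not 1181. As a percentage of the 1014-Ctrl mean, 1181-Grpr had 27.3% of Xist, 26.4% of Dct, which encodes a melanin enzyme, and 35.7% of Tyrp1, another. Of the 39 genes, 37 had a higher percentage than Xist. Xist stood at 0.0465% in 1181-Ctrl, but several of the 37 were above 27.3% in 1181-Ctrl already. Among these were Cmpk2 (148%), Tap1 (77.2%) and Ifi35 (70.7%). For such genes a place above Xist in 1181-Grpr shows no more than the level of 1181-Ctrl. Trim25 (25.3%) and Psmb8 (25.8%) were near Xist. In 13 genes 1181-Grpr was at or above the 1014-Ctrl mean, in 22 it was at 50% to 100% of it, and in 4 it was lower, with a median of 82.8%. The highest were Cmpk2, a mitochondrial nucleotide kinase gene (342%), Oasl1, a regulator of Irf7 translation (265%), Irf7 (209%) and Rsad2, which encodes viperin (201%). Among the 19 genes for which 1181-Ctrl had under 10% of the 1014-Ctrl mean, 6 were at or above 100% in 1181-Grpr, and the median was 85.3%. Oas3 (152%) and Zbp1 (128%), with at most 0.2 and 0.456 CPM in the libraries compared, count among the 37 and the 13. Oas3 also counts among the 6. Whether the 1181-Grpr libraries hold RNA of another line was not tested, and the part of the receptor, of the vector and of line history in the difference cannot be told apart.

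**Figure D2:**
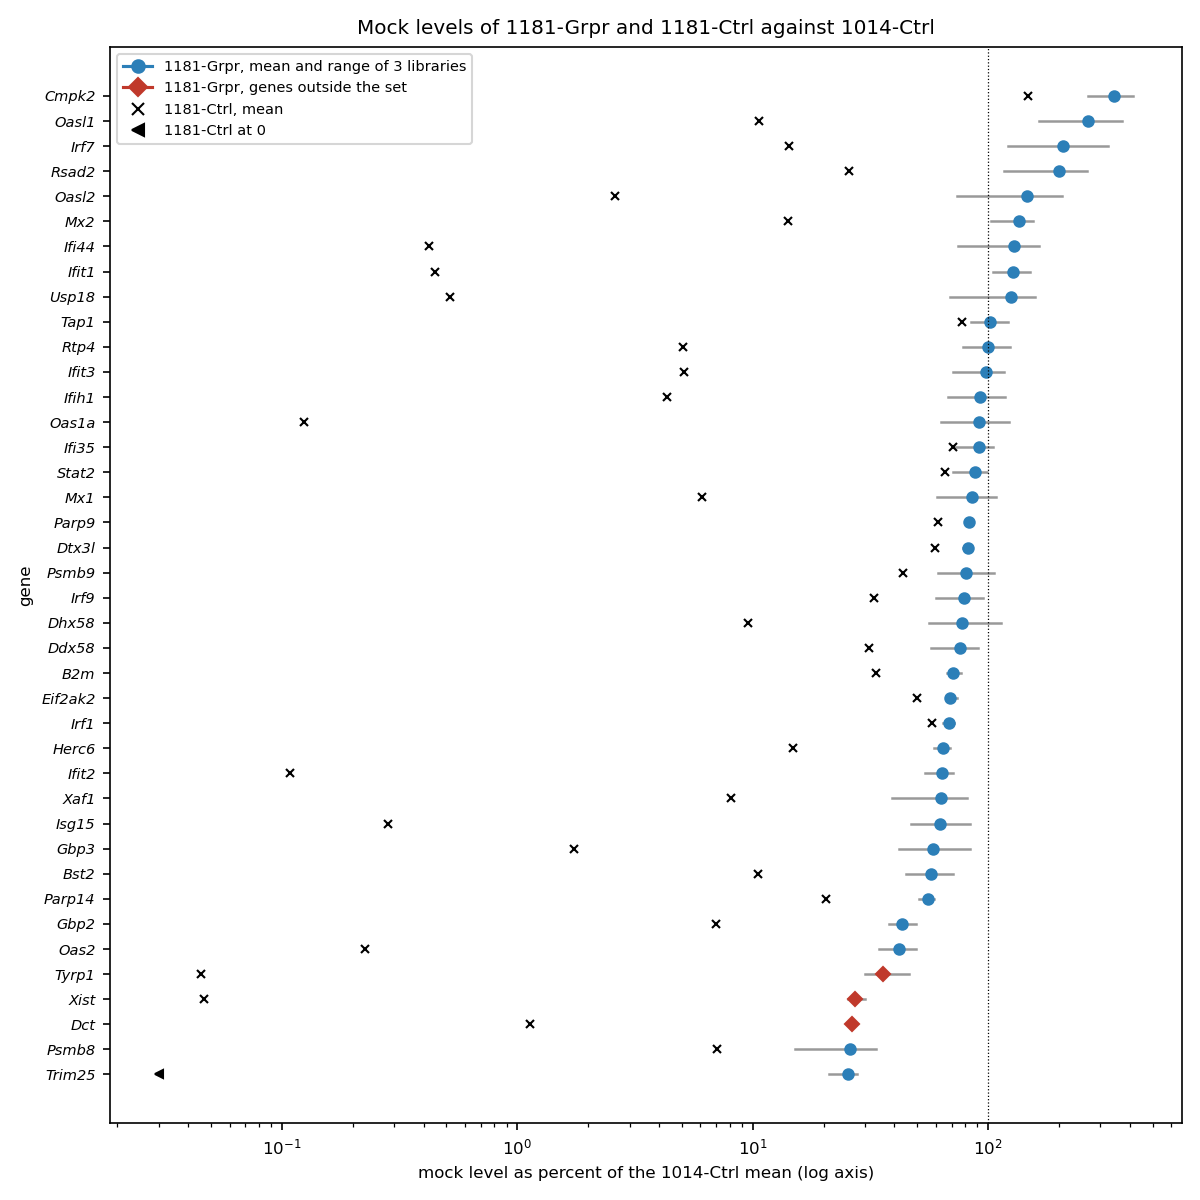
Mock level of each gene in 1181-Grpr (dots with the range of 3 libraries) and in 1181-Ctrl (crosses, or arrowheads where no read was counted) as a percent of the 1014-Ctrl mean on a log axis. Xist, Dct and Tyrp1, which are no interferon-stimulated genes, are drawn as diamonds, Oas3 and Zbp1 are left out for their low counts, and most dots lie to the right of the Xist diamond at 27.3%.

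The 2 control versions also differed. In 1181-Ctrl 34 of the 37 genes were lower than in 1014-Ctrl and none was higher, where 20.5% of all genes were lower and 14.2% higher. The median log2 fold change was -3.51, and 0 over all genes. Bst2 had 3.64, 13.4 and 8.4 CPM in 1181-Ctrl against 91.2 and 70.2 CPM in 1014-Ctrl (-3.09, SE 0.35, adjusted p = 1.4e-05 with all 3 libraries of 1014-Ctrl). Ifit3 had 1.38, 2.53 and 2.38 CPM against 44.1 and 38.1 CPM (-4.42, SE 0.39, adjusted p = 1.1e-06), with 31.7% of its exon windows shared with Ifit3b. Trim25 was at least 658-fold higher in 1014-Ctrl. The 3 genes that did not pass were Cmpk2, Parp9, which recognises ADP-ribose, and the peptide transporter gene Tap1. The count remained 34 without the doubtful libraries, where 49.4% of all genes passed in either direction, against 34.6% with them.

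No gene passed between 1014-Grpr and 1014-Ctrl by edgeR, 2 had an unadjusted p under 0.05, and DESeq2 called 1. Only 0.0846% of all genes passed. The median log2 fold change was 0.17 for the 37 genes and -0.01 for all. Isg15 had 18.8, 7.75 and 13.9 CPM in 1014-Grpr and 16.2 and 12.5 CPM in 1014-Ctrl, and the libraries overlapped. The 3 genes with the smallest p were B2m (log2 fold change 0.42, adjusted p = 0.16), Oasl1 (-1.72, adjusted p = 0.275) and Herc6, an ISG15 ligase gene (0.51, adjusted p = 0.552). Oasl1 had 10.8 CPM in the doubtful library against 3.83 and 2.92 CPM in the other 1014-Ctrl libraries.

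Between the lines that make Grpr themselves, 1057 had lower levels than 1064 for 16 of the 37 genes and higher levels for 2. For all genes these shares were 25.1% lower and 24.3% higher, and the medians were -0.44 for the 37 genes (-0.54 over the 34 genes above the floor) and 0 for all genes. Antigen presentation stood lowest. Psmb8 had 0.0306, 0.0929 and 0.0306 CPM in 1057 and 7.31, 4.18 and 6.3 CPM in 1064 (adjusted p = 2.1e-07), and with 5 reads in 1057 the ratio of 1064 to 1057 was 119 (50.5 to 367). Psmb9, its partner in the immunoproteasome, was 14.6-fold lower and Tap1 was 4.37-fold lower (3.13, 2.91 and 3.42 CPM against 16.4, 12.5 and 12.3 CPM, adjusted p = 2.6e-06). Dtx3l, whose ubiquitin ligase works with PARP9, was 5.57-fold lower and Parp9 4.81-fold lower. Parp9 and Dtx3l overlap on opposite strands (9.4% and 8.0% of their exon bases), as do Tap1 and Psmb9 (3.9% and 5.8%), and the libraries were made with a stranded kit. Ddx58, which encodes RIG-I, had 15.1, 13.8 and 16 CPM against 66.9, 49.9 and 37.7 CPM (3.45-fold lower, adjusted p = 0.00018). The libraries of the 2 lines were apart for each of these genes. Gbp2 was 20.7-fold lower, although the 1064 libraries ranged from 20.4 to 155 CPM. Rsad2 was higher in 1057, with 1.41, 1.58 and 1.56 CPM against 0.331, 0.371 and 0.413 CPM (log2 fold change 2.01, adjusted p = 0.0111), and so was Ifi44 by its p, with 7 reads in 1057 and none in 1064, both under the floor.

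Against the mean of 1014-Ctrl and 1181-Ctrl, the mean of 1057 and 1064 was lower for 28 of the 37 genes and higher for 4 (Trim25, Gbp2, Gbp3 and Ifit2), as means of log2 values, where 33.9% of all genes were lower and 30.2% higher. The median was -1.47 (the same with 4 genes at their bound) against -0.06 for all genes. For Gbp3 and Ifit2 the direction came from the low 1181-Ctrl libraries, and both had more CPM in 1014-Ctrl than in 1057 or 1064. Gbp2 was above 1014-Ctrl on average in 1064 and not in 1057. It had 88.7 TPM in 1064 (25.0 to 200 TPM per library) and 4.08 TPM in 1057, against 28.2 TPM in 1014-Ctrl. Parp14, an ADP-ribosyltransferase gene, had 0 to 0.184 CPM per library in 1057 and 1064, against 31.9 and 37.9 CPM in 1014-Ctrl and 5.63, 6.86 and 9.0 CPM in 1181-Ctrl (adjusted p = 1e-10). It did not overlap either control line. Rtp4, a chaperone gene for receptors, had 4 reads in 1057 and 3 in 1064, and the ratio of 1014-Ctrl was 509 (198 to 1873) to 1057 and 502 (171 to 2439) to 1064. Ifih1 was 7.93-fold lower on average, but its 1181-Ctrl libraries (0.805 to 1.62 CPM) lay within the range of 1064 (0.688 to 1.53 CPM) or just above it. This contrast averages 2 control lines that themselves differed in 34 of the 37 genes. It shares 1057, 1064, 1014-Ctrl and 1181-Ctrl libraries with the comparisons above.

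GRP moved 16 of the 27 genes that could be tested in 1057, 9 up and 7 down, and no more than 2 of them by over 2-fold. Of all genes tested, 52.6% passed, 25.7% rising and 26.9% falling, so the share among the 27 was near the background. The median log2 fold change was -0.01 for the 27 genes and -0.01 for all. The other 12 genes were too low to test, at or under 0.517 CPM in every library of 1057. Trim25 rose most clearly, from 127, 125 and 117 CPM to 332, 331 and 326 CPM (2.73-fold, SE 0.03 on the log2 scale, adjusted p = 7.7e-17), and no GRP library came near a mock library. Isg15 rose from 0.552, 0.372 and 0.336 CPM to 0.821, 0.735 and 0.704 CPM (1.82-fold, adjusted p = 0.00698). Its level stayed low in both. With Herc6 (1.45-fold, adjusted p = 0.0434), 3 of 3 tested genes of the ISG15 system rose and none fell.

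Among the sensors of 1057, 3 of 6 rose and 1 fell. Oasl1 rose from 0.337, 0.217 and 0.153 CPM to 0.787, 0.559 and 0.672 CPM (2.86-fold, adjusted p = 0.00076). Dhx58, which encodes LGP2, a regulator of the RNA sensors, rose from 0.613, 0.836 and 0.886 CPM to 1.78, 1.26 and 1.22 CPM (1.84-fold, adjusted p = 0.00194). Ifih1 rose 1.66-fold (adjusted p = 0.0459), with 1 library at 1.03 CPM and the others at 0.617 and 0.64 CPM. The sensor that fell was Eif2ak2, from 28.7, 30.7 and 32.7 CPM to 22.8, 22.1 and 22 CPM (log2 fold change -0.44, SE 0.06, adjusted p = 4.5e-06). Mock and GRP libraries did not overlap for these 4 genes, which were named because they passed. The share of all genes without such overlap was not counted, here or in the other comparisons. Of 10 effectors, Rsad2 (1.45-fold) and Gbp3 (1.38-fold) rose, while Mx1, a GTPase gene (log2 fold change -0.77, adjusted p = 0.00199), and Gbp2 (-0.43, adjusted p = 0.00367) fell.

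Irf1 was the 1 transcription factor of 4 that changed in 1057. It fell from 10.8, 10.0 and 9.87 CPM to 5.92, 6.53 and 6.04 CPM (1.62-fold lower, SE 0.08, adjusted p = 3.3e-07), with the libraries apart. In the PARP9 group 2 of 2 tested genes fell, Parp9 from 3.25, 3.31 and 2.69 CPM to 2.09, 1.76 and 1.47 CPM (1.71-fold lower, adjusted p = 0.00046) and Dtx3l by 0.56 on the log2 scale (adjusted p = 0.0109). In antigen presentation, Tap1 fell from 3.13, 2.91 and 3.42 CPM to 2.09, 2.47 and 1.76 CPM (log2 fold change -0.55, adjusted p = 0.00461). B2m rose from 288, 268 and 265 CPM to 312, 306 and 314 CPM (1.16-fold, adjusted p = 2.3e-05). The direction thus differed between genes of the same role. Without replicate 1, 2 or 3 between 11 and 13 genes passed, and with the replicate number as a block 14 did (53% of all genes).

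In 1064, GRP changed 5 of 30 tested genes, 1 up and 4 down, where 6.38% of all genes passed (3.62% rose and 2.76% fell). All 5 had also passed in 1057, with the same direction, which is 31.2% of the 16 genes in 1057. This was common among all genes that passed in 1064. Of all genes, 880 passed in 1064 and 769 passed in both lines. The lines share no library, and 19.2% of the 26 members tested in both lines passed in both, against 5.94% of all 12941 genes. Of all genes that passed in both lines, 97.9% also had the same direction. The median log2 fold change was -0.22 for the 30 genes and -0.02 for all. Trim25 rose from 79.9, 92.5 and 93.8 CPM to 225, 140 and 155 CPM (1.96-fold, SE 0.20, adjusted p = 0.0214). Irf1 fell from 17.8, 16.6 and 7.12 CPM to 4.07, 5.22 and 4.0 CPM (3.12-fold lower, SE 0.31, adjusted p = 0.0149). Dtx3l fell from 16.1, 13.5 and 11.1 CPM to 4.54, 5.32 and 6.69 CPM (2.45-fold lower, adjusted p = 0.00758). Mock and GRP libraries were apart for all 3, although mock replicate 3 lay well below the other mock libraries for Irf1. Tap1 fell 1.99-fold (16.4, 12.5 and 12.3 CPM to 6.33, 5.99 and 8.35 CPM, adjusted p = 0.0154) and Eif2ak2 1.89-fold (40.1, 33.0 and 28.1 CPM to 18.8, 15.3 and 19.3 CPM, adjusted p = 0.0142). Without replicate 1 or without replicate 2 no member passed, nor did any of all genes tested, and without replicate 3 there were 4 members.

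Replicates of 1064 that share a number deviated together. With the replicate number as a block 4 of the 30 genes were higher with GRP and 10 lower, against 43.5% of all genes in either direction. Isg15 was higher by 0.93 on the log2 scale (1.03, 0.847 and 1.79 CPM to 1.93, 2.25 and 2.73 CPM, blocked adjusted p = 0.00844). Oasl1 was higher by 1.3 (0.372, 0.794 and 1.82 CPM to 1.24, 2.51 and 3.56 CPM, blocked adjusted p = 0.0124). Each GRP library exceeded the mock library of its own number for both genes, while mock and GRP libraries of different numbers overlapped for Oasl1. B2m was higher by 0.26. Cmpk2 (-1.75), Parp9 (-0.96), Xaf1, a proapoptotic gene (-0.78), Ifit2 (-0.60), Stat2 (-0.43) and Ifi35 (-0.19) were lower in the blocked fit.

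GRP moved no gene past the test in 1014-Grpr without the block, where 29% of all genes passed, 2 of the 37 had an unadjusted p under 0.05 and DESeq2 called 0. Isg15 was nearest, with 18.8, 7.75 and 13.9 CPM in mock and 34.6, 19.1 and 27.1 CPM with GRP (2.01-fold, SE 0.36, adjusted p = 0.0541). The lowest GRP library lay just above the highest mock library. Same-numbered replicates deviated together here too. With the block 11 genes were higher and 3 lower, against 53.6% of all genes in either direction. Blocked log2 fold changes were 1.03 for Isg15 (SE 0.07, adjusted p = 1.2e-09), 0.64 for Gbp3 (adjusted p = 5.1e-08), 0.53 for Gbp2 (adjusted p = 1.1e-06), 0.47 for Ifi44, 0.45 for Dhx58 and 0.32 for Trim25 (adjusted p = 1.3e-05). Gbp3 had 57.5, 25.1 and 43.7 CPM in mock and 80.1, 45.5 and 65.0 CPM with GRP, higher in each pair of one number and overlapping otherwise. Tap1 (-0.29), Xaf1 (-0.23) and Eif2ak2 (-0.15) were lower. Irf1, which fell in 1057 and 1064, had 29.7, 28.3 and 25.4 CPM in mock and 27.4, 28.4 and 28.8 CPM with GRP in 1014-Grpr, and whether the lines differ in this was not tested.

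**Figure D3:**
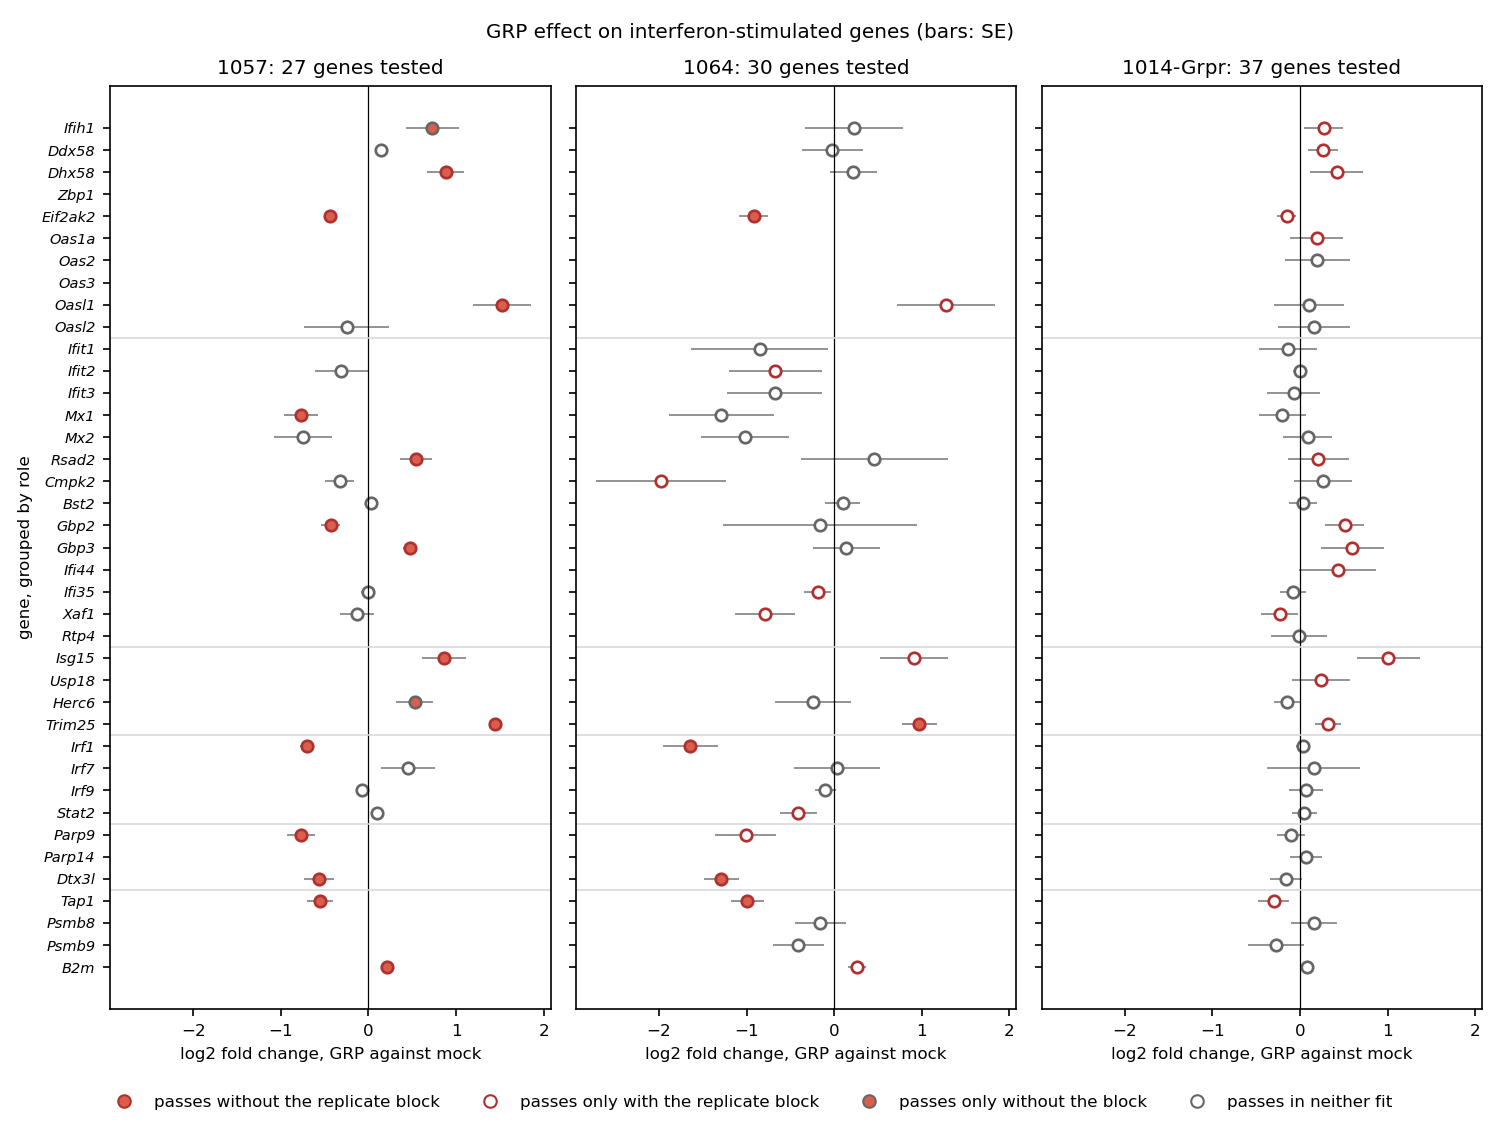
Log2 fold change of GRP against mock with its SE, from the fit without the replicate block, for each gene tested in 1057 (27 genes), 1064 (30) and 1014-Grpr (37). Filled points passed in that fit and red outlines mark genes that passed with the block, and Trim25 and Isg15 lie to the right of 0 and Eif2ak2 and Tap1 to the left in all 3 panels.

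Counting the blocked fits of 1064 and 1014-Grpr and the fit of 1057, 4 genes passed in all 3 lines, Trim25 and Isg15 higher and Eif2ak2 and Tap1 lower. These are 15.4% of the 26 members tested in all 3, below the 27.6% of all genes that passed in all 3. Between 1057 and 1064 9 genes were shared (56.2% of the 16 and 64.3% of the 14), all in the same direction. That is 34.6% of the members tested in both, beside 33.4% of all genes, of which 94.8% had the same direction. Between 1057 and 1014-Grpr 9 were shared, 8 in the same direction (33.3% of the members tested in both, beside 38.5% of all genes), and Gbp2 was lower in 1057 and higher in 1014-Grpr. In the promoters printed above, Isg15 has 3 ISRE matches, Trim25 none, and Eif2ak2 an ISRE and a GAS match. Tap1 had neither motif. The size of the Isg15 effect was close to 2-fold in each line while its level with GRP was 0.753 ± 0.0609 CPM in 1057, 2.3 ± 0.404 CPM in 1064 and 26.9 ± 7.75 CPM in 1014-Grpr (SD, n = 3 each).

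**Figure D4:**
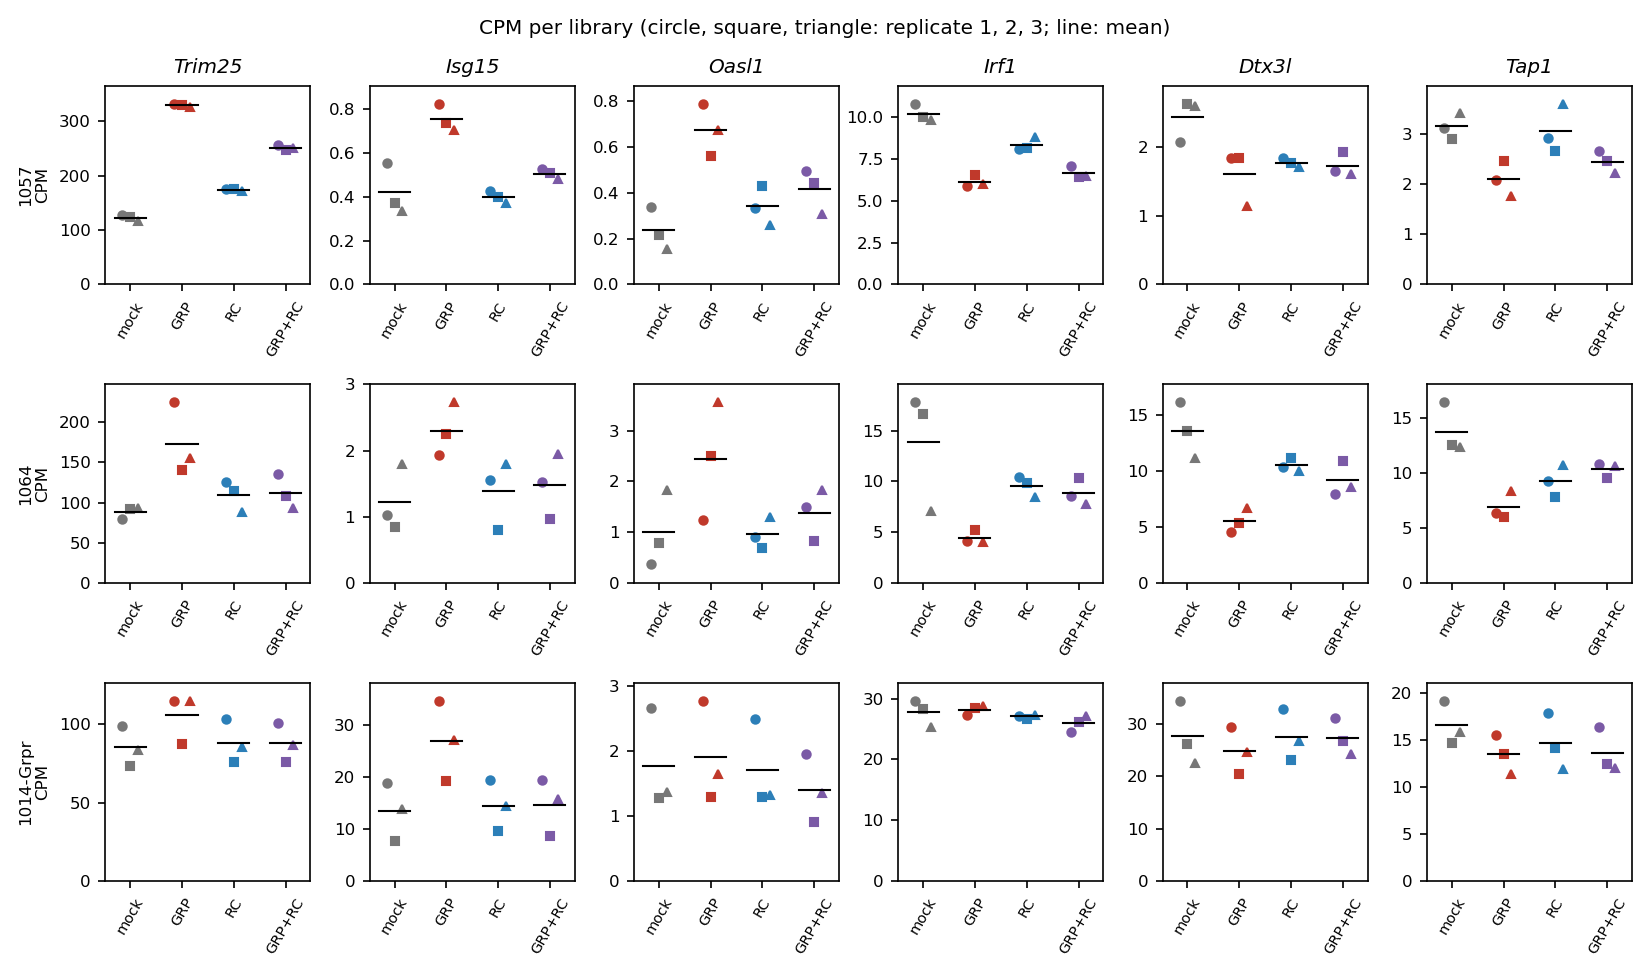
CPM of Trim25, Isg15, Oasl1, Irf1, Dtx3l and Tap1 in each library of 1057, 1064 and 1014-Grpr under the 4 treatments, with 1 symbol per replicate number, a line at the mean and axes that start at 0. In 1057 the 3 Trim25 values with GRP lie at 326 to 332 CPM and those with GRP+RC at 248 to 257 CPM, above the 117 to 127 CPM of mock.

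The antagonist was tested alone and on top of GRP, and these comparisons share their mock or GRP libraries with those above. In 1057, RC alone raised 3 of 27 genes and lowered 2, where 24.3% of all genes passed. Trim25 went from 127, 125 and 117 CPM to 175, 176 and 172 CPM (log2 fold change 0.50, adjusted p = 2.4e-09), and Irf1 from 10.8, 10.0 and 9.87 CPM to 8.08, 8.16 and 8.84 CPM (-0.30, adjusted p = 0.00567). Both moved in the direction seen with GRP, with no overlap between the groups, and so did Gbp3 (0.28) and Eif2ak2 (-0.25). Without any 1 replicate number 2 genes passed. GRP+RC against GRP lowered 2 of 27 genes and raised none (24.7% of all genes passed). Trim25 had 257, 248 and 251 CPM with GRP+RC (-0.41 against GRP, adjusted p = 1.3e-08), between its GRP and its mock libraries. B2m was lower by 0.13 (adjusted p = 0.00668), and without replicate 3 only 1 gene passed. Irf1, with 7.09, 6.43 and 6.51 CPM, did not pass between GRP+RC and GRP.

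Against mock, GRP+RC still raised 5 genes and lowered 6 in 1057, where 44.3% of all genes passed. Trim25 was 2.06-fold higher (adjusted p = 1.6e-14), Dhx58 1.92-fold higher (adjusted p = 0.00139) and Irf1 lower by 0.61 on the log2 scale (adjusted p = 2.6e-06). Each replicate left out brought the 11 down to between 5 and 7. With the block 10 passed (44.7% of all genes), and 5 passed for RC alone (24.9% of all genes).

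In 1064, no gene passed between GRP+RC and GRP, where 0.029% of all genes did, 6 of 30 had an unadjusted p under 0.05 and DESeq2 called 0. With the block 7 were higher and 2 lower with GRP+RC, against 21.2% of all genes in either direction. Irf1 had 8.58, 10.3 and 7.75 CPM with GRP+RC, above every GRP library (blocked 0.99, adjusted p = 0.0143). Trim25 had 136, 108 and 93.5 CPM, below every GRP library (blocked -0.63, adjusted p = 0.0136). Dtx3l (0.70), Parp9 (0.62), Eif2ak2 (0.61), Ifit2 (0.60), Tap1 (0.57) and Xaf1 (0.51) were higher and B2m (-0.22) lower. Against mock, neither RC nor GRP+RC moved a gene past the test, with or without the block, and 0% of all genes passed. At an unadjusted p under 0.05 there were 1 and 2 genes, and DESeq2 called 0 in both.

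In 1014-Grpr, none of the 37 passed between GRP+RC and GRP without the block, where 11.8% of all genes did, 3.71% higher and 8.06% lower. Of the 37, 1 had an unadjusted p under 0.05, and DESeq2 called 0. With the block 16 were lower and none higher, against 38.7% of all genes in either direction. Isg15 had 19.3, 8.66 and 15.8 CPM with GRP+RC, lower than the GRP library of the same number each time (blocked -0.90, SE 0.08, adjusted p = 2.8e-08). Gbp3 had 59.3, 28.0 and 42.3 CPM, also lower in each number (blocked -0.58, adjusted p = 5.1e-07). Against mock the blocked fit called 1 gene higher and 4 lower with GRP+RC (17.3% of all genes in either direction). Without the block edgeR called 0 (0.765% of all genes were higher and 0.182% lower), with 0 at an unadjusted p under 0.05 and 0 by DESeq2. RC alone passed for no gene by edgeR with or without the block (0% and 0.0364% of all genes), with 0 and 2 at an unadjusted p under 0.05 and 0 by DESeq2.

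The remaining lines showed no member past the test under GRP, RC or GRP+RC, and 0% of all genes passed in them. They were 1014-Ctrl, 1181-Ctrl and 1181-Grpr, in which 0 to 2 members a comparison had an unadjusted p under 0.05 by edgeR and DESeq2 called 0. With GRP, 1181-Grpr had 6.28, 11.2 and 7.93 CPM of Isg15, and 1014-Ctrl had 13.9, 8.42 and 12.2 CPM, each overlapping mock. In 1014-Ctrl the smallest p with GRP were those of Oasl1 (log2 fold change -0.84, adjusted p = 0.698), Rsad2 (-0.78) and Oasl2 (-0.65), and without the doubtful mock replicate 2 the values were -0.04 for Oasl1 and -0.11 for Rsad2. In 1181-Grpr the smallest p with GRP+RC was that of Trim25 (0.95, adjusted p = 0.878), with 17.9 and 25.1 CPM beside 78.3 CPM in the doubtful library. The difference of the GRP effect between 1014-Grpr and 1014-Ctrl passed for none of 37 genes without the block (13.6% of all genes, 1 at an unadjusted p under 0.05, DESeq2 0). Isg15 had 1.25 on the log2 scale there (SE 0.49, adjusted p = 0.0941). With the replicate number as a block within each line, 5 were higher in 1014-Grpr and 2 lower, against 26.8% of all genes in either direction. These were Isg15 (1.31, SE 0.14, adjusted p = 8.0e-06), Gbp3 (0.91), Dhx58 (0.74), Oas1a (0.53) and Ddx58 (0.27), and Xaf1 (-0.33) and Eif2ak2 (-0.29). In the fit without the block, leaving out the doubtful 1014-Ctrl library moved Eif2ak2 from -0.28 to -0.11, Xaf1 from -0.32 to -0.23 and Oas1a from 0.49 to 0.40. The differences of Isg15, Gbp3, Dhx58 and Ddx58 did not shrink there. For 1181 the same difference passed for no gene by either fit (0% of all genes), with 0 at an unadjusted p under 0.05 without the block and 0 by DESeq2.

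Replicate numbers carried large differences in several of these genes in 1064, 1014-Grpr and both versions of 1181, few in 1014-Ctrl and none in 1057. Averaged over the 4 treatments, the highest and lowest replicate number differed by over 2-fold for 0 of 27 genes in 1057 (0.134% of all genes), 8 of 30 in 1064 (26.7% against 14.3%), 2 of 37 in 1014-Ctrl (5.41% against 2.42%), 6 of 37 in 1014-Grpr (16.2% against 3.13%), 9 of 28 in 1181-Ctrl (32.1% against 15.5%) and 10 of 37 in 1181-Grpr (27% against 7.76%). Gbp2 in 1064 had 155, 139, 136 and 135 CPM in the libraries of number 1 (mock, GRP, RC and GRP+RC). It had 20.4, 13.3, 16.9 and 15.6 CPM in those of number 2 and 35.5, 37.0, 36.3 and 35.7 CPM in those of number 3. The number thus set the level of Gbp2 apart at every treatment. Rsad2 in 1181-Ctrl had 1.69, 1.49, 1.47 and 1.51 CPM under number 1 and 6.34, 7.87, 7.47 and 7.62 CPM under number 2. Irf7 in 1014-Grpr had 12.7, 12.9, 13.9 and 11.8 CPM under number 1 against 4.74, 5.15, 4.6 and 4.02 CPM under number 2. The labels do not say what a number marks.

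**Figure D5:**
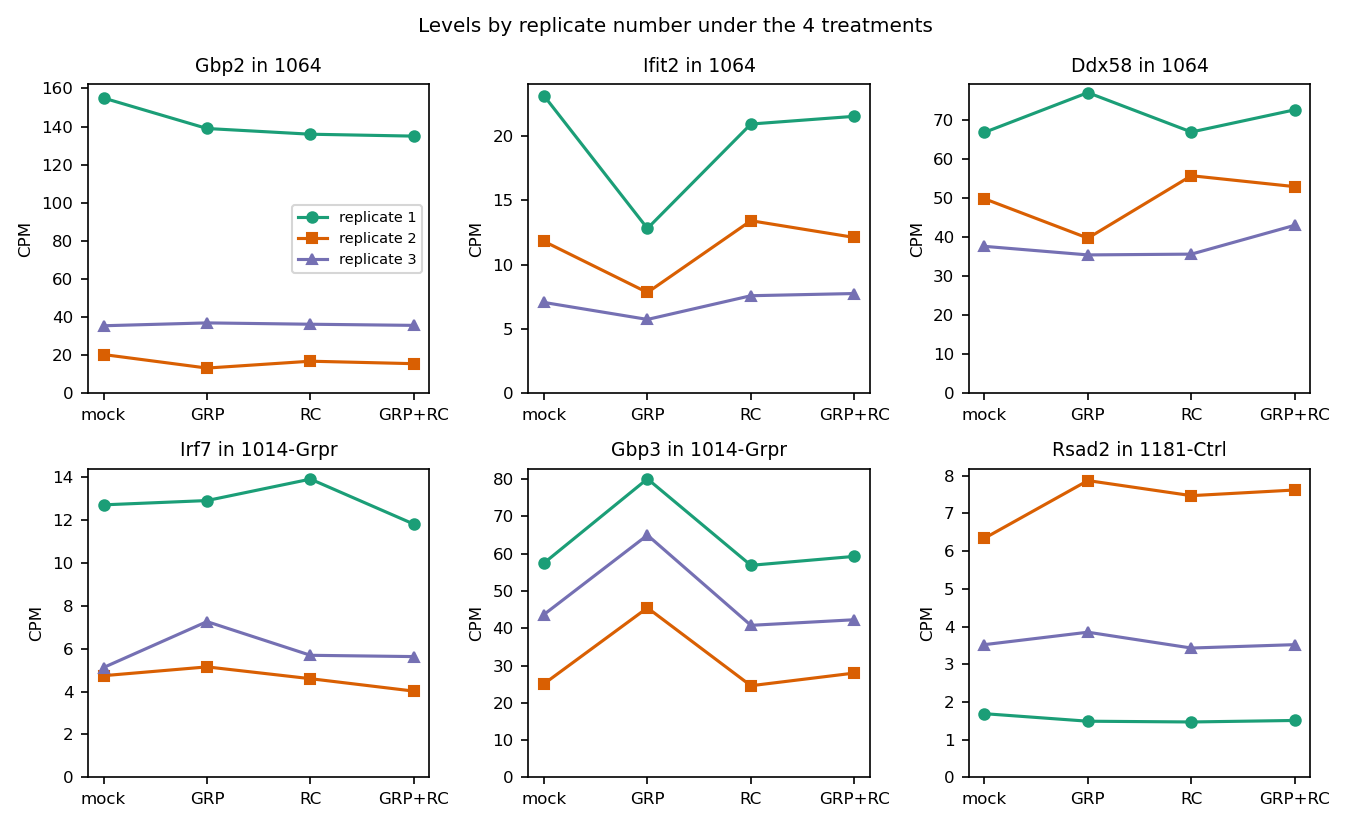
CPM under the 4 treatments, with 1 line per replicate number, for Gbp2, Ifit2 and Ddx58 in 1064, Irf7 and Gbp3 in 1014-Grpr and Rsad2 in 1181-Ctrl, on axes that start at 0. The order of the numbers is the same at all 4 treatments in each panel, as for Gbp2, where number 1 lies at 135 to 155 CPM and number 2 at 13.3 to 20.4 CPM.

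Other genes of the pathway were counted from lists of 16 interferon and receptor genes, 18 kinase, STAT, adaptor and IRF genes, 9 inhibitors and 42 further targets. With GRP in 1057, none of 6 tested receptor genes rose and 3 fell, 5 of 18 kinase, STAT and adaptor genes rose and 7 fell, 6 of 8 inhibitors rose and 1 fell, and 3 of 29 further targets rose and 10 fell, beside 25.7% of all genes that rose and 26.9% that fell. The inhibitor Socs1, which blocks JAK kinases, was higher by 0.88 on the log2 scale (adjusted p = 0.00417) and its relative Socs3 by 0.69. Stat3 was higher by 0.52 (adjusted p = 3.7e-11), while Tlr3, a sensor of double-stranded RNA, was lower by 1.07 (adjusted p = 3.7e-11) and Tmem173, which encodes STING, by 0.58. In 1064, GRP moved 0 of 6 receptor genes, 0 of 17 kinase, STAT and adaptor genes, 1 of 8 inhibitors (Ptpn6, lower by 1.11) and 2 of 29 further targets (Irgm2, lower by 0.87, and Trim21, lower by 0.55), beside 6.38% of all genes. In 1014-Grpr without the block, 2 of 6 receptor genes rose and 2 fell, 5 of 18 kinase, STAT and adaptor genes rose and 2 fell, 2 of 8 inhibitors rose and 1 fell, and 6 of 40 further targets rose and 1 fell, beside 16.3% of all genes that rose and 12.7% that fell. Stat3 (0.50, adjusted p = 1.3e-04) and Traf3, an adaptor gene (0.55, adjusted p = 4.9e-05), were higher there, as was Cd274, which encodes PD-L1 (0.88). Between mock-treated 1181-Grpr and 1181-Ctrl, 23 of 39 further targets and 5 of 18 kinase, STAT and adaptor genes were higher and none lower (8.35% of all genes were higher and 1.39% lower), with the chemokine gene Ccl5 (6.39) and the cytosolic DNA sensor gene Mb21d1 (4.16) among them, and 0 of 6 receptor genes passed.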

How the data were processed

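RNA of 72 libraries was sequenced after poly(A) selection with a stranded kit. Per the labels and the methods of the study, the authors checked reads with FastQC 0.11.5, aligned them with STAR to mm10 (GRCm38.p5) and deposited gene counts, which are raw, and a table of TPM, which the authors scaled by gene length and depth. In the TPM table the columns of 1057 use a decimal comma, which was read as a point.

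Counts were tested with edgeR 4.0.16 (quasi-likelihood test, TMM, filterByExpr with a minimum count of 10, Benjamini-Hochberg over all genes tested) in R 4.3.3. Treatments were tested within the 12 libraries of a line, lines over the 18 mock libraries, and differences of the GRP effect over both versions of a line (29 comparisons in all). CPM were scaled by TMM over the 72 libraries. SE is that of the log2 fold change. All columns were matched to a sample by name, and columns of other samples numbered 0. The closest replicates differed by more than sampling noise (chi-square per degree of freedom of 2.556).

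Groups came from the labels. Alternatives were DESeq2 1.42.0, no filter, a 2-fold limit, 1 fit of all 72 libraries, the replicate number as a block, each replicate left out, and 2 doubtful libraries left out. Deviations of same-numbered libraries from their group means correlated at r of at least 0.583 in 1064, 0.386 in 1014-Grpr and 0.74 in 1181-Ctrl, at 0.077 in 1014-Ctrl and -0.015 in 1181-Grpr (0.34 and 0.444 without the doubtful libraries) and at -0.154 in 1057. The pairing comes from this check, since the labels give only the number. Exon overlaps and shared windows of 100 bases come from GENCODE M21 on GRCm38. Counting intervals are exact at 95%, and floors are 3 counts per library. Both cover counting error only.

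The 39 genes and all other lists were chosen with earlier results of these data known. Members named are those that passed (up to 10 by size of change in a comparison, or the 3 with the smallest p where none passed), the most and least abundant by TPM, and those with the largest ratios between lines. In the further lists up to 5 genes with the smallest p were eligible. Overlap counts, libraries shown for replicate numbers and promoters printed were chosen after the values were seen. Scripts were tested on simulated data. A few genes of the further lists are not reported here.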

Additional observations from a re-analysis of the deposited data

How the results depend on the processing

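Over all alternatives, 222 counts of genes that passed stayed within 1.5 times the reported count and 36 did not. The 222 include counts of 0 that stayed 0, as for the treatments of 1014-Ctrl, 1181-Ctrl and 1181-Grpr, where 0% of all genes passed. They are thus no measure of how steady the other counts were. All 58 recomputed medians stayed within the spread. For single genes 942 values kept direction and call, 84 no longer passed, 24 newly passed and 8 turned. The cause was not tested. Except where given above, the share of all genes that passed under an alternative is not given, so these counts describe the members alone. In the fit with a replicate block, the count with GRP went from 5 to 14 in 1064 and from 0 to 14 in 1014-Grpr, that of GRP+RC against GRP from 0 to 9 in 1064 and from 0 to 16 in 1014-Grpr, that of GRP+RC against mock from 0 to 5 in 1014-Grpr, and the difference of the GRP effect in 1014 from 0 to 7. In 1057, where the numbers did not pair, the block left 14 of the 16. One fit of 72 libraries gave 1 with GRP in 1014-Grpr, 5 in 1057 and 8 in 1064, 3 for GRP+RC against GRP in 1064, 3 for GRP+RC against mock in 1057, 0 for RC and for GRP+RC against GRP in 1057, and 2 between mock-treated 1014-Grpr and 1014-Ctrl. A 2-fold limit left 2 with GRP in 1057 and 2 in 1064, 1 for GRP+RC against mock, and 0 for RC and for GRP+RC against GRP in 1057. Without the filter 4 passed with GRP and 2 for GRP+RC against GRP in 1014-Grpr. DESeq2 gave 7 for GRP+RC against mock in 1057 and 1 between mock-treated 1014-Grpr and 1014-Ctrl. Leaving out 1 replicate number gave 0 to 2 with GRP in 1014-Grpr, 11 to 13 in 1057 and 0 to 4 in 1064, and 1 to 2 for GRP+RC against GRP, 5 to 7 for GRP+RC against mock and 2 for RC in 1057, and 0 to 1 for the difference of the GRP effect in 1014. That difference had 9 without the 2 doubtful libraries and with the block, an alternative chosen after seeing the data. In it, log2 fold changes in 1014-Ctrl turned to 0.04 (Oasl1, GRP), 0.02 (Rsad2, GRP) and 0.07 (Rsad2, GRP+RC), and the difference of Cmpk2 in 1014 to -0.04. With 1 replicate number left out, log2 fold changes with GRP in 1014-Ctrl ranged from -1.21 to 0.05 for Oasl1 and from -1.26 to 0.09 for Rsad2 (turned without replicate 2), and those with GRP+RC from -0.18 to 0.00 for Irf1 in 1014-Grpr (without replicate 1) and from -0.03 to 0.65 for Gbp3 in 1181-Ctrl (without replicate 3). For low counts, 12 genes in 1057, 9 in 1064 and 11 in 1181-Ctrl were not tested within the line.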
